A study of Homo sapiens with 4 samples.

Results

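The 10 genes described here encode proteins that make melanin or build and equip the melanosome, the organelle in which the pigment is made and stored. They were chosen by gene name, as 3 enzymes (TYR, TYRP1, DCT), 2 proteins of the melanosome matrix and membrane (PMEL, MLANA), 4 melanosomal membrane proteins (OCA2, SLC45A2, SLC24A5, GPR143) and the copper pump ATP7A, out of 14355 gene names in the deposited tables. All 10 had coding-sequence reads in every library and passed the filter on low counts. Ribosome footprints, the mRNA fragments that ribosomes protect from RNase, were sequenced from Hermes 4B cells, an immortalised line of human skin melanocytes labelled WT in genotype. Cells had received siRNA directed at CDH3-AS1, which is a noncoding RNA antisense to the P-cadherin gene CDH3, or a control siRNA, each at 25 to 50 nM. Each siRNA had 2 libraries, with replicate 1 in batch 1 and replicate 2 in batch 2. All cells grew in medium with 10% serum, stem cell factor (10 ng/mL), cholera toxin (200 pM), TPA (200 nM) and endothelin-1 (10 nM), several of which drive melanocyte growth and pigmentation. Cycloheximide at 100 µg/mL held ribosomes in place. The cells are 1 line, and no label says that libraries came from separate cultures. The p-values therefore rest only on spread between these libraries, estimated jointly over genes, and that spread may be technical.

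Melanin synthesis starts when tyrosinase (TYR), a copper enzyme, oxidises tyrosine. DCT, also called dopachrome tautomerase, and TYRP1 are relatives of tyrosinase that act on later intermediates of brown and black eumelanin. PMEL forms the fibrils on which melanin is laid down, MLANA is a small melanosomal protein needed for PMEL maturation, and OCA2, SLC45A2 and SLC24A5 are transport proteins that set melanosomal pH and ion content. GPR143 is a receptor of the melanosome membrane that limits melanosome size, and ATP7A supplies copper to tyrosinase. The transcription factor MITF is known to drive many of these genes through E-box words in their promoters.

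On GRCh38.p14, TYR lies on chromosome 11 at 89177875 to 89295759, TYRP1 on chromosome 9 at 12693385 to 12710285 and DCT on chromosome 13 at 94436811 to 94549406. PMEL lies on chromosome 12 at 55954105 to 55966709, and MLANA on chromosome 9 at 5890889 to 5910606. OCA2 and SLC24A5 are both on chromosome 15, at 27719008 to 28099315 and at 48120990 to 48142672, and SLC45A2 is on chromosome 5 at 33944623 to 33984693. GPR143, at 9725346 to 9778602, and ATP7A, at 77910693 to 78050395, are both on chromosome X.

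Promoter stretches are shown for the 3 related enzymes and GPR143, the members with more than 1 match to CATGTG, a word of the kind that MITF binds. The search covered the 250 bases before each transcription start listed in the RefSeq promoter table (GRCh38.p14), on both strands, so the word reads CATGTG or CACATG. Each stretch has up to 12 bases on either side, runs 5′ to 3′ on the gene's strand, and has the word in capitals.
TYR, 104 bases before the start, chr11:89177759-89177788, plus strand: agaaaagtcagtCATGTGcttttcagagga
TYR, 12 bases before the start, chr11:89177851-89177874, plus strand: tctcagccaagaCATGTGataatc
TYRP1, 144 bases before the start, chr9:12693229-12693258, plus strand: ttggaagggaatCATGTGctgatcaagtcc
TYRP1, 11 bases before the start, chr9:12693362-12693384, plus strand: caggcagcaatcCACATGcactt
DCT, 215 bases before the start, chr13:94479880-94479909, minus strand: gtttggctggagCACATGagcccagataaa
DCT, 134 bases before the start, chr13:94479799-94479828, minus strand: tgcactttgggtCATGTGctaatgatgagg
GPR143, 61 bases before the start, chrX:9765891-9765920, minus strand: agaggcccagggCACATGatgccgccccca
GPR143, 33 bases before the start, chrX:9765863-9765892, minus strand: cagcccgcccagCACATGacccaggcaggc

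The word CATGTG stood in 9.42% of 35116 such windows of all RefSeq genes and in windows of 6 of the 8 members that had one. TYR and TYRP1 each had a copy close to the start, 12 and 11 bases before it. DCT has 2 listed starts, and the window of the downstream one held both words printed while the other held none. The start listed for GPR143 lies inside the gene span given above, not at its end, so its stretches precede that listed start only. OCA2 held it 153 and SLC24A5 15 bases before the start, and the windows of MLANA and ATP7A held no such letters. The longer word TCATGTGC, which contains CATGTG, was in 0.493% of all windows and in TYR, TYRP1, DCT and GPR143. The related word CACGTG, in 6.34% of all windows, was found in ATP7A alone among the members. PMEL and SLC45A2 had no window in the table used. These matches describe letters in a short window, and binding was not measured here.

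Library totals ran from 2034854 to 6759850 reads, 90.5% to 93.9% of them in coding sequence. CDH3-AS1 itself was not analysed here, and the knockdown is therefore unchecked. Before TMM scaling, the 12 melanocyte markers that are not among the 10 genes, such as SOX10 and MITF, summed to 7229.9 and 6484 CPM in CDH3-AS1 siRNA replicates 1 and 2 and to 7002 and 5809 CPM in control siRNA replicates 1 and 2. SLC7A5 was the largest part (2547 and 2692 CPM with CDH3-AS1 siRNA, 2137 and 1645 CPM with control siRNA), except in control siRNA replicate 1, where SOX10 was. The sum joins markers that went opposite ways. MITF, KIT, EDNRB, RAB38 and MC1R were lower with CDH3-AS1 siRNA in both batches. SLC7A5, SOX10, PAX3, CDH19, S100B and TFAP2A were higher in both, and TRPM1 was mixed. Skeletal muscle markers summed to 3952 CPM in control siRNA replicate 1, mostly TTN and ACTA1, and to at most 7.72 CPM in any other library, and the same library held 379 and 111 CPM of the collagens COL1A1 and COL1A2. LUM was also highest in that library, at 2.17 CPM against at most 0.158 CPM elsewhere. FAP, DCN and PDGFRA did not follow: FAP was lowest there (92.8 CPM, against 95.1 to 341 CPM elsewhere) and DCN and PDGFRA were at 0. Endothelial and immune markers summed to 9.77 and 15.7 CPM in control siRNA replicate 1, and to at most 2.84 and 4.88 CPM elsewhere. Keratinocyte markers summed to at most 35.6 CPM, nearly all KRT10, while KRT1 and KRT14 were at most 0.178 and 0.543 CPM. The part of these other markers in the results was not tested, beyond the values given without that control library. In bulk libraries, fewer cells of a type and less RNA per cell cannot be told apart, and with no RNA-seq analysed here a footprint level combines mRNA amount and its translation.

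TYRP1, PMEL and MLANA were among the genes with the highest footprint density in these cells, and DCT lay below the median gene. Levels are compared between genes as coding-sequence RPKM, reads scaled to region length and library total, summed over a gene's listed transcripts. TYRP1 stood at 5319.97 and 8285 RPKM in CDH3-AS1 siRNA replicates 1 and 2, against 4659.8 and 10259.7 RPKM in control siRNA replicates 1 and 2. By RPKM it ranked 11 and 3 in the CDH3-AS1 siRNA libraries and 12 and 2 in the control libraries, among 11955 to 12806 genes with coding-sequence reads. PMEL had 3139 and 5401 RPKM with CDH3-AS1 siRNA and 3487 and 6947 RPKM with control siRNA, and its rank ran from 5 to 23. MLANA had 3196 and 3677 RPKM with CDH3-AS1 siRNA and 5546 and 5899 RPKM with control siRNA, with ranks from 8 to 21. These 3 genes overlapped in range and their order differed between libraries, with MLANA above TYRP1 only in control siRNA replicate 1.

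TYR, the enzyme of the first step, followed at 929.9 and 739 RPKM with CDH3-AS1 siRNA and 1163 and 1605 RPKM with control siRNA, below the lowest value of the first 3 genes in every library. TYRP1 footprints per base exceeded those of TYR 5.72 and 11.2 times in the CDH3-AS1 siRNA libraries and 4.01 and 6.39 times in the control libraries. SLC24A5, a potassium-dependent sodium-calcium exchanger, ran from 236 to 558 RPKM over the 4 libraries, and GPR143 from 94.2 to 319 RPKM, so these neighbours overlapped. SLC45A2, a transporter linked to melanosomal pH, ran from 26.4 to 69.3 RPKM, below both. OCA2 (13.4 to 27.7 RPKM) and ATP7A (10.5 to 23.2 RPKM) overlapped and lay near the library medians of 17.5 to 20.2 RPKM over all genes with reads. For ATP7A this depends on summing transcripts. Its longest transcript alone had 5.81 and 5.05 RPKM with CDH3-AS1 siRNA and 3.27 and 7.04 RPKM with control siRNA, below those medians. By summed RPKM DCT was the lowest of the 10 and ranked between 7569 and 9748. It had 11.35 and 3.14 RPKM with CDH3-AS1 siRNA and 9.84 and 9.51 RPKM with control siRNA. By the main transcript alone DCT averaged 8.10 RPKM, above the 5.29 RPKM of ATP7A, so the order of these genes depends on the measure. DCT reads numbered only 116 and 14 with CDH3-AS1 siRNA and 30 and 89 with control siRNA.

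**Figure D1:**
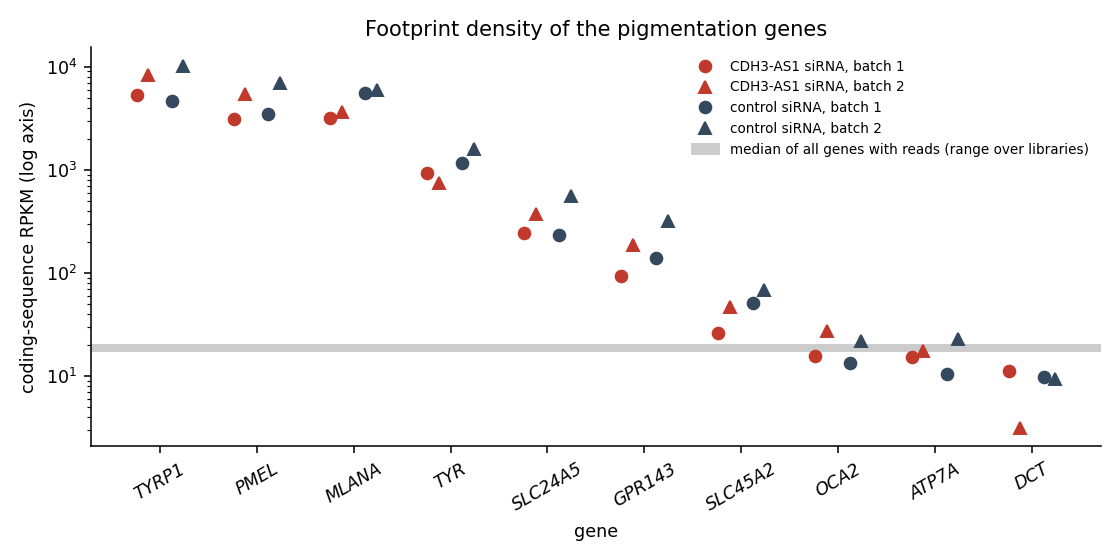
Coding-sequence RPKM (log axis) of each gene in each library, with CDH3-AS1 siRNA libraries (red) left of control libraries (dark), circles for batch 1 and triangles for batch 2. The grey band spans the library medians of all genes with reads, 17.5 to 20.2 RPKM, and TYRP1, PMEL and MLANA stand at 3139 RPKM or more in every library while DCT lies below the band.

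Together the 10 genes took 1.92% (95% exact interval 1.91 to 1.93) and 3.02% (2.99 to 3.04) of coding-sequence reads in CDH3-AS1 siRNA replicates 1 and 2. In control siRNA replicates 1 and 2 they took 2.09% (2.07 to 2.11) and 3.88% (3.86 to 3.89). The larger shares were both in batch 2. TYRP1, PMEL, TYR and MLANA made up 96.6% to 97.0% of these reads in every library, so the summed share is almost wholly theirs. These intervals allow for counting error alone, as reads were not collapsed by molecular identifier here.

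The siRNA comparison asks whether footprints of these genes differed after CDH3-AS1 siRNA. Counts were tested over all genes by edgeR's quasi-likelihood test, first without a covariate and then with the batch as a replicate block, since the labels give same-numbered libraries a shared batch. Levels in this comparison are CPM, coding-sequence reads scaled to library size by TMM. Of the 10 genes, 6 were lower with CDH3-AS1 siRNA in both batches (TYR, PMEL, MLANA, SLC45A2, SLC24A5 and GPR143), 1 was higher in both (OCA2), and 3 went opposite ways. Over all 10469 genes tested, 27.8% were lower and 26.5% higher in both batches. Without the block none of the 10 was called (0 of 10469 genes were, 0%), and none had an unadjusted p under 0.05, against 225 of all genes. Counts were also simulated from the fit with the block, batch differences kept. In them the fit without the block recovered 0 of 50 genes changed 4-fold, so its lack of calls says little. This simulation takes the block model as given and does not test it. With the block 2 members, TYR and MLANA, were called lower and 0 higher, where 0.697% of all genes were called lower, 0.927% higher and 1.62% in either direction.

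TYR had 1583 and 1328 CPM in CDH3-AS1 siRNA replicates 1 and 2, against 2007 and 2705 CPM in control siRNA replicates 1 and 2. Both CDH3-AS1 siRNA libraries lay below both controls, at 78.9% of the batch 1 control and 49.1% of the batch 2 control. The log2 fold change was -0.69 (SE 0.34, adjusted p = 1.00) without the block and -0.68 (SE 0.20, adjusted p = 0.0498) with it. This call sits at the threshold: with the block, TYR passed in 4 of 9 settings, with adjusted p from 0.0267 to 0.372, the highest from DESeq2.

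MLANA, also known as Melan-A, had 1222 and 1482 CPM with CDH3-AS1 siRNA and 2148 and 2232 CPM with control siRNA. The groups did not overlap, and CDH3-AS1 siRNA levels were 56.9% of the batch 1 control and 66.4% of the batch 2 control. Its log2 fold change of -0.70 (SE 0.32, adjusted p = 1.00) became -0.70 (SE 0.20, adjusted p = 0.0397) with the block. MLANA passed in 5 of the 9 settings with the block, with adjusted p from 0.021 to 0.377. Without control siRNA replicate 1, the library with muscle transcripts, the fold changes of TYR and MLANA without the block were -0.86 and -0.69.

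SLC45A2 was the third member whose groups did not overlap. It had 44.99 and 84.1 CPM with CDH3-AS1 siRNA and 89.6 and 117 CPM with control siRNA, a log2 fold change of -0.72 with the block (SE 0.28, adjusted p = 0.224). In all, 3 of the 10 genes had both CDH3-AS1 siRNA libraries below both controls, against 14.1% of all genes tested, and 0 had both above, against 13.3%. GPR143 had 123 and 258 CPM with CDH3-AS1 siRNA and 183 and 411 CPM with control siRNA. It was lower by similar amounts in both batches (67.0% and 62.7% of control), but the batches differed more than the siRNAs, so the groups overlapped (-0.62 with the block, SE 0.25, adjusted p = 0.245).

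PMEL and TYRP1, the most abundant of the set, did not pass in any fit of the siRNA comparison. PMEL had 6747 and 12239.7 CPM with CDH3-AS1 siRNA and 7593 and 14777 CPM with control siRNA, or 88.8% and 82.8% of control in batches 1 and 2 (-0.22 with the block, SE 0.17, adjusted p = 0.777). TYRP1 had 9194 and 15099.8 CPM with CDH3-AS1 siRNA and 8160.2 and 17551 CPM with control siRNA, so it was above its control in batch 1 and below it in batch 2. Its log2 fold change with the block was -0.02 (SE 0.17, adjusted p = 0.990). TYR and TYRP1, enzymes of one family, thus had block estimates of -0.68 and -0.02, and the difference between the genes was not tested.

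SLC24A5 had 297 and 466 CPM with CDH3-AS1 siRNA and 302 and 654 CPM with control siRNA, with the batch 1 libraries nearly equal (-0.26 with the block, SE 0.23, adjusted p = 0.833). OCA2, the only member higher in both batches, had 41.8 and 76.6 CPM with CDH3-AS1 siRNA and 35.7 and 57.5 CPM with control siRNA (0.32 with the block, SE 0.30, adjusted p = 0.84). The copper pump ATP7A had 45.8 and 45.4 CPM with CDH3-AS1 siRNA and 29.3 and 61.4 CPM with control siRNA, which bracket them (0.07 with the block, SE 0.31, adjusted p = 0.98). DCT had 18.4 and 5.53 CPM with CDH3-AS1 siRNA and 16.0 and 15.7 CPM with control siRNA. Its estimate of -0.55 with the block (SE 0.42, adjusted p = 0.78) rests on the 14 reads of CDH3-AS1 siRNA replicate 2. The median log2 fold change over the 10 genes was -0.34 without the block, and -0.10 within batch 1 and -0.48 within batch 2, beside -0.03, 0.01 and -0.03 over all genes. Leaving out 1 library at a time, the median of the 10 was -0.12 and -0.63 when CDH3-AS1 siRNA replicate 1 or 2 was dropped, and -0.65 and 0.20 when control replicate 1 or 2 was dropped. These fits have no block and leave the batches unbalanced between the siRNAs, so a batch difference enters their estimates.

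**Figure D2:**
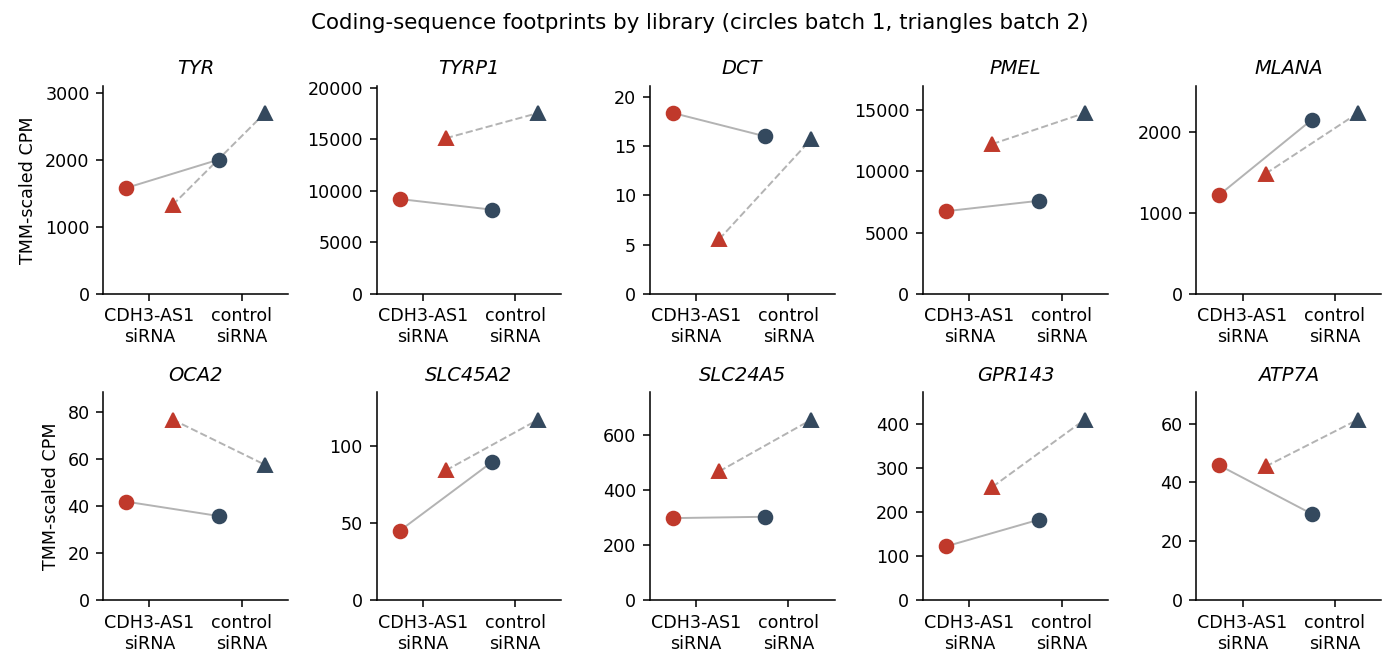
TMM-scaled CPM of each gene (linear axes from 0, 1 scale per gene) in the CDH3-AS1 siRNA libraries (red, left) and the control siRNA libraries (dark, right), with circles for batch 1, triangles for batch 2 and lines joining libraries of a batch. TYR, MLANA and SLC45A2 have both red points below both dark points, and for TYRP1, PMEL, SLC24A5, GPR143 and OCA2 both triangles lie above both circles.

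For several members the batch estimate was larger than the siRNA estimate. Schwann cell markers, 2 of which are also in the melanocyte list, moved with both factors: they summed to 2966 and 1238 CPM with CDH3-AS1 siRNA and to 1855 and 864 CPM with control siRNA. NGFR led them, at 1661 and 408 CPM with CDH3-AS1 siRNA and 785 and 175 CPM with control siRNA. They were lower in batch 2 and higher with CDH3-AS1 siRNA in both batches, and their part in the results was not tested. With the siRNA held fixed, 4 of the 10 genes were called higher in batch 2 than in batch 1 and 0 lower, by edgeR's quasi-likelihood test, where 15.8% of all genes were called, 9.52% higher and 6.3% lower. These were TYRP1 (log2 fold change 0.91, SE 0.17, adjusted p = 3.41e-06), PMEL (0.91, SE 0.17, adjusted p = 5.67e-06), GPR143 (1.12, SE 0.25, adjusted p = 0.000175) and SLC24A5 (0.88, SE 0.23, adjusted p = 0.00269). The increase was 1.64-fold for TYRP1 and 1.81-fold for PMEL between the CDH3-AS1 siRNA libraries, and 2.15-fold and 1.95-fold between the controls. GPR143 was 2.10-fold higher in batch 2 between the CDH3-AS1 siRNA libraries and 2.24-fold higher between the controls. OCA2 (0.78, SE 0.30, adjusted p = 0.0567) and SLC45A2 (0.64, SE 0.28, adjusted p = 0.0998) did not pass, although both batch 2 libraries of OCA2 lay above both of batch 1.

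TYR and MLANA, the members called between the siRNAs, had estimates of 0.09 (SE 0.20, adjusted p = 0.828) and 0.17 (SE 0.20, adjusted p = 0.643) between the batches. TYR was 1.35-fold higher in batch 2 between the controls and at 0.838 times its batch 1 level between the CDH3-AS1 siRNA libraries. DCT was the only member with a negative batch estimate (-0.77, SE 0.43, adjusted p = 0.221). Complete separation of the batches, with both batch 2 libraries above both batch 1 libraries, held for 5 of the 10 genes and for 28.7% of all genes. The labels give the batch only as a number, and what differed between the batches is not given in the sources used here.

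**Figure D3:**
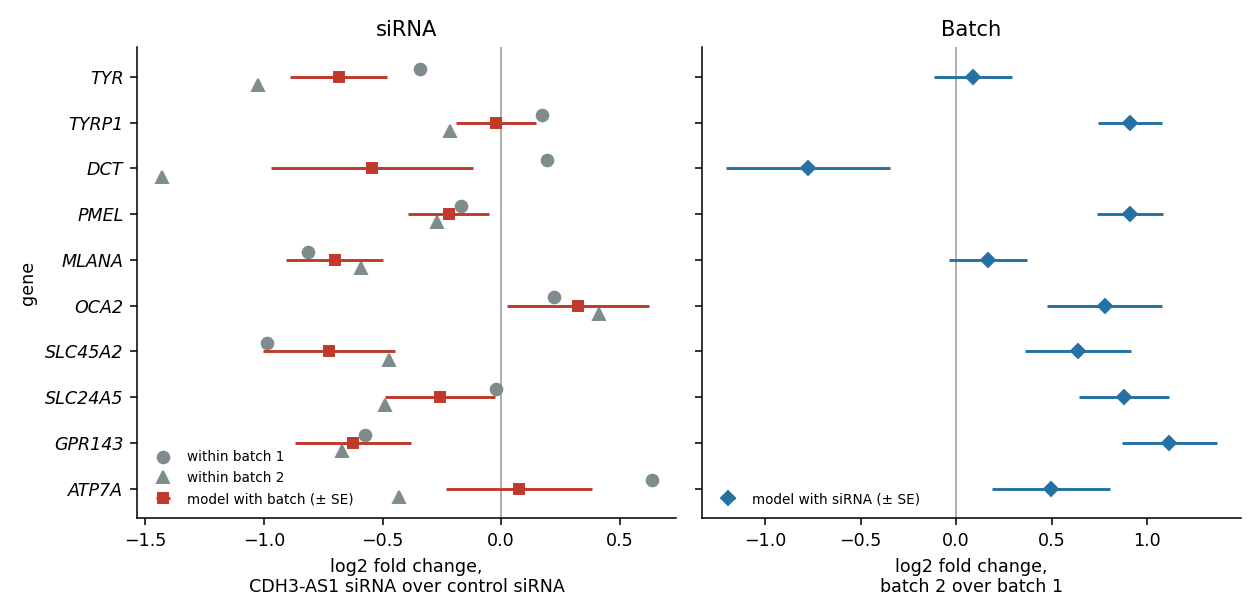
Left, log2 fold change of CDH3-AS1 siRNA over control siRNA within batch 1 (circles), within batch 2 (triangles) and in the model with the batch (red squares, bars ± SE). Right, log2 fold change of batch 2 over batch 1 in the model with the siRNA (blue diamonds, bars ± SE); MLANA and TYR have the lowest siRNA adjusted p and batch estimates of 0.17 and 0.09, while TYRP1 and PMEL have siRNA estimates of -0.02 and -0.22 and batch estimates of 0.91.

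Several regulators and receptors of pigment genes were called between the batches, in both directions. Of the 10 tested, 2 were called higher in batch 2 and 4 lower, where 9.52% of all genes were called higher and 6.3% lower. MITF, the transcription factor of melanocyte identity, had 584 and 890.3 CPM in CDH3-AS1 siRNA replicates 1 and 2 and 595 and 1219 CPM in control siRNA replicates 1 and 2. It was higher in batch 2 (0.82, SE 0.22, adjusted p = 0.00299) in both siRNAs, as was the stem cell factor receptor KIT (1.30, SE 0.26, adjusted p = 1.41e-05). SOX10 (-0.85, SE 0.21) and PAX3 (-0.95, SE 0.26), transcription factors acting upstream of MITF, were lower in batch 2, with adjusted p of 0.000785 and 0.00305. The endothelin receptor EDNRB (-0.71) and the melanocortin receptor MC1R (-1.33) were lower as well, with adjusted p of 0.0229 and 0.0313, MC1R at 3.16 to 22.4 CPM. Between the siRNAs, KIT (-1.16, SE 0.25, adjusted p = 0.00121) and EDNRB (-0.88, SE 0.24, adjusted p = 0.0171) were called lower with the block, and none of the 10 was called higher. Over all genes, that fit called 0.697% lower and 0.927% higher. KIT passed in DESeq2 and limma with the block too (adjusted p = 0.0134 and 0.0478), while EDNRB did not (0.0772 and 0.0993). Without the block, the KIT estimate of -1.22 became -0.74 and -1.91 when CDH3-AS1 siRNA replicate 1 or 2 was dropped, and -0.32 on dropping control replicate 2. The EDNRB estimate of -0.89 was -0.42 without control siRNA replicate 1. With a library dropped and no block, part of the batch difference enters these estimates. MITF had -0.24 (SE 0.22, adjusted p = 0.834) between the siRNAs and SOX10 0.24 (SE 0.20, adjusted p = 0.818).

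Of 26 tested genes of melanosome biogenesis and transport, 2 were called lower with CDH3-AS1 siRNA in the model with the block and 0 higher, where 0.697% of all genes were called lower and 0.927% higher. They were RAB38, a small GTPase that brings TYR and TYRP1 to the melanosome, and RAB27A, which ties melanosomes to the myosin motor. RAB38 had 66.5 and 112 CPM with CDH3-AS1 siRNA and 188 and 181 CPM with control siRNA (-1.09, SE 0.26, adjusted p = 0.00467), so its groups did not overlap, although DESeq2 with the block gave an adjusted p of 0.0795. RAB27A had 28.4 and 63.6 CPM with CDH3-AS1 siRNA and 50.1 and 141 CPM with control siRNA (-0.99, SE 0.29, adjusted p = 0.0408), and its groups overlapped. Its call was lost with the block under DESeq2 (adjusted p = 0.266), limma (0.085) and the reads of all regions (0.135). Without the block its estimate of -1.07 became -0.59 and -1.75 when CDH3-AS1 siRNA replicate 1 or 2 was dropped, and -0.13 on dropping control replicate 2. Those fits leave the batches unbalanced, so part of the batch difference enters them. The motor MYO5A (-0.55), the adaptor subunit AP3D1 (-0.45) and LYST (-0.07), those with the most reads, did not pass. The median over the 26 was -0.26 with the block. RAB27A was also higher in batch 2 (1.32, SE 0.29), as was the complex subunit BLOC1S1 (1.59, SE 0.33), with adjusted p of 0.000145 and 3.82e-05. They were the only 2 of the 26 called between the batches, where 9.52% of all genes were called higher and 6.3% lower.

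None of the 6 tested genes of PMEL processing and its relatives was called between the siRNAs. The chaperone CALR had 3796 and 4749 CPM with CDH3-AS1 siRNA and 2493 and 3114 CPM with control siRNA (0.61 with the block, SE 0.19, adjusted p = 0.0719). GPNMB, a relative of PMEL, stood at -0.06, and BACE2, a protease that cuts PMEL into its fibril-forming part, at 0.12. CD63, a sorting partner of PMEL, was the only 1 of the 6 called between the batches, where 15.8% of all genes were called. It was higher in batch 2 (0.58, SE 0.20, adjusted p = 0.027). Of 15 tested genes of copper, ion and melanin chemistry, 0 were called between the siRNAs and 3 were called higher in batch 2, where 9.52% of all genes were. OSTM1, a chloride transporter subunit, was higher there by 1.17 (SE 0.24, adjusted p = 2.61e-05) and the copper chaperone COX17 by 1.49 (SE 0.38, adjusted p = 0.0017). The third, the cation channel TRPM1, had 0.475 and 4.74 CPM with CDH3-AS1 siRNA and 0 and 27.4 CPM with control siRNA. MFSD12, a cysteine transporter of melanosomes, had 0.22 between the siRNAs with the block and the vacuolar pump accessories ATP6AP1 and ATP6AP2 0.16 and 0.14.

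Footprints outside the coding sequence were few for most members, and among the abundant ones TYRP1 and MLANA had the most in the 5′ UTR. DCT had the highest 5′ UTR shares of the set, on few reads: 4.88% (6 reads) and 0 with CDH3-AS1 siRNA and 16.7% (6 reads) and 15.9% (17 reads) with control siRNA. Both CDH3-AS1 siRNA libraries lay below both controls, but the 0 of 14 reads in CDH3-AS1 siRNA replicate 2 allows a share of up to 23.2% (95% exact interval). The change of the ratio did not pass the test described below (-1.83, SE 1.06, adjusted p = 0.999). Over all listed transcripts, the 5′ UTR held 0.911% (95% exact interval 0.836 to 0.991) and 7.76% (7.51 to 8.02) of TYRP1 reads in CDH3-AS1 siRNA replicates 1 and 2. In control siRNA replicates 1 and 2 it held 2.17% (1.95 to 2.41) and 8.31% (8.14 to 8.47). Both batch 2 libraries were thus far above both batch 1 libraries. In the transcript that carries all TYRP1 coding reads, the 5′ UTR of 179 bases had a density of 209 and 5841 RPKM with CDH3-AS1 siRNA and 412 and 7554 RPKM with control siRNA. Its coding sequence of 1614 bases had 5319.97 and 8285 RPKM with CDH3-AS1 siRNA and 4659.8 and 10259.7 RPKM with control siRNA, so in batch 2 the 5′ UTR was below the density of the coding sequence but far closer to it than in batch 1. The 9016 reads of TYRP1 in control siRNA replicate 2 were 2.96% of all 5′ UTR reads of that library, more than for any other gene.

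Over the rest of the table, the summed share and the typical gene gave different pictures. All other genes summed had 3.87% and 7.18% of reads in 5′ UTRs in CDH3-AS1 siRNA replicates 1 and 2 and 6.07% and 5.11% in control siRNA replicates 1 and 2, with no order by batch. The median share per gene, over genes with at least 100 reads, was 1.77% and 3.25% with CDH3-AS1 siRNA and 2.33% and 2.41% with control siRNA, so by this measure both batch 2 libraries were above both batch 1 libraries, by little in the controls. The part of this wider difference in the TYRP1 result was not tested beyond the fit over all genes that follows. The change of 5′ UTR reads relative to coding reads was tested over 5097 genes in a model with the library as a block, chosen after these shares had been seen. TYRP1 was called higher in batch 2 (log2 change of the ratio 2.40, SE 0.44, adjusted p = 0.0235), where 1.63% of genes were called higher and 2.28% in either direction, and 1038 genes had an unadjusted p under 0.05. In the main transcript alone the change was 3.29 (SE 0.29, adjusted p = 3.83e-06). Between the siRNAs the TYRP1 ratio had -0.58 (SE 0.43, adjusted p = 0.999), and 0 genes were called (0%), with 96 at an unadjusted p under 0.05.

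MLANA had 2.90% and 4.49% of its reads in 5′ UTRs with CDH3-AS1 siRNA and 3.73% and 5.46% with control siRNA. These shares were below the summed share of all other genes except in control siRNA replicate 2, where that was 5.11%. They were above the median share per gene in every library (1.77% and 3.25% with CDH3-AS1 siRNA, 2.33% and 2.41% with control siRNA). Most of the MLANA 5′ UTR reads belonged to a second listed transcript with a 5′ UTR of 406 bases and no coding reads. It held 212 and 119 such reads with CDH3-AS1 siRNA and 148 and 578 with control siRNA. In the transcript that carries the MLANA coding reads, with a 5′ UTR of 73 bases, the share was 0.292% and 1.57% with CDH3-AS1 siRNA and 0.222% and 1.24% with control siRNA. That ratio was called higher in batch 2 (2.09, SE 0.51, adjusted p = 0.0301), while over all transcripts it was not (0.41, SE 0.49, adjusted p = 0.682). A second TYRP1 transcript, with a 5′ UTR of 242 bases, likewise held 284 and 260 reads with CDH3-AS1 siRNA and 191 and 911 reads with control siRNA there and none in coding sequence. By contrast TYR had 6 and 2 reads in its 5′ UTR of 79 bases with CDH3-AS1 siRNA and 8 and 20 with control siRNA, beside 3361 to 15298 in its coding sequence. OCA2 and GPR143 had 0 reads in the 5′ UTR in any library, which in control siRNA replicate 2 allows up to 0.904% and 0.129% of their reads.

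The 3′ UTR shares of TYRP1, MLANA, OCA2, GPR143 and SLC24A5 were higher with CDH3-AS1 siRNA in both batches. The 4 members tested were TYRP1, MLANA, OCA2 and PMEL, and none passed. OCA2 had 6.38% (18 reads) and 5.37% (11 reads) with CDH3-AS1 siRNA and 2.90% (2 reads) and 2.11% (7 reads) with control siRNA, the largest shares of the set in 3 of 4 libraries (log2 change of the ratio 1.02, SE 0.83, adjusted p = 0.96). GPR143, with 1 to 6 such reads, and SLC24A5, with 0 to 4, were not tested. TYRP1 had 0.575% (95% exact interval 0.516 to 0.640) and 0.877% (0.790 to 0.971) of reads in the 3′ UTR with CDH3-AS1 siRNA. With control siRNA it had 0.280% (0.204 to 0.376) and 0.249% (0.220 to 0.280). Intervals of the siRNA groups do not overlap, but they cover counting error alone. Those of the CDH3-AS1 siRNA libraries do not overlap each other either. MLANA had 1.77% and 1.97% with CDH3-AS1 siRNA and 0.523% and 1.06% with control siRNA. PMEL had 0.0985% and 0.399% with CDH3-AS1 siRNA and 0.0982% and 0.0944% with control siRNA, so only CDH3-AS1 siRNA replicate 2 stood out. For TYRP1 the log2 change of the 3′ UTR to coding ratio was 1.22 (SE 0.29, unadjusted p = 0.00309, adjusted p = 0.96 over 3596 genes, of which 0.0278% were called). All other genes together had 2.31% and 1.65% with CDH3-AS1 siRNA and 3.54% and 1.07% with control siRNA, so the summed share went opposite ways in the batches. The median share per gene, over genes with at least 100 reads, was 1.77% and 1.05% with CDH3-AS1 siRNA and 1.23% and 0.746% with control siRNA, higher with CDH3-AS1 siRNA in both batches as for the members named. Between the batches the 3′ UTR ratio of PMEL was 2.04 higher (SE 0.39) and that of TYRP1 1.31 higher (SE 0.29) in batch 2, with adjusted p of 0.144 and 0.180, and 0 members were called, where 0.0834% of genes were called in either direction and 0.0556% higher.

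**Figure D4:**
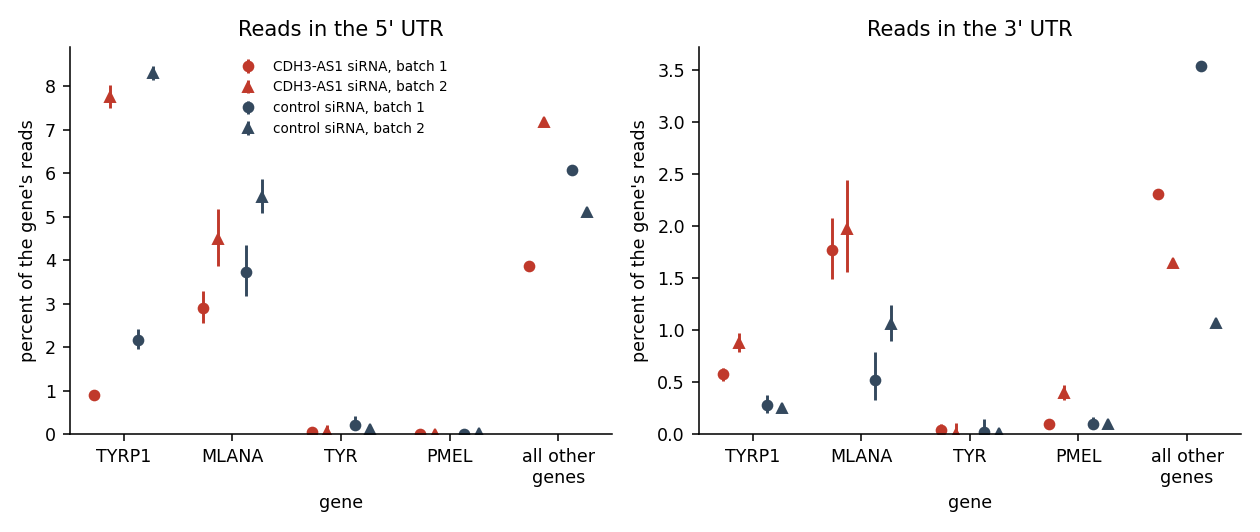
Percent of a gene's reads in the 5′ UTR (left) and 3′ UTR (right) for TYRP1, MLANA, TYR, PMEL and all other genes summed, by library, with 95% exact intervals for single genes. TYRP1 stands at 7.76% and 8.31% in the 5′ UTR in batch 2 against 0.911% and 2.17% in batch 1, while the sum over all other genes is not ordered by batch.

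Transcripts of a member were mostly represented by 1 entry. TYR, GPR143 and SLC45A2 had 1 listed transcript, and TYRP1, PMEL and MLANA had 2 of which 1 took all coding reads. For SLC24A5 a transcript with a coding sequence of 1503 bases took 89.5% and 87.8% of coding reads with CDH3-AS1 siRNA and 91.2% and 88.3% with control siRNA, and a short one of 369 bases the rest. OCA2 reads lay mostly on an entry with 2445 coding bases, 91.3% and 91.2% with CDH3-AS1 siRNA and 91.0% and 95.1% with control siRNA. ATP7A was spread over 7 transcripts with coding reads, and the longest, of 4503 coding bases, held 57.3% of them, so its summed RPKM averaged 16.7 where that transcript alone averaged 5.29. How reads shared by several transcripts were assigned is not given in the sources used here, so these splits are uncertain.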

How the data were processed

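Per the file headers, the authors deposited 1 table per library with read counts by transcript, split into both UTRs and the coding sequence. The authors also deposited RPKM for each region, which by recalculation equals reads scaled to region length and to the library total over all regions, and columns of region lengths in bases. The submitters' processing notes name hg38 and DESeq2. The aligner, counter, annotation, filters and strand setting are not given in the sources used. Tables held 38455 transcripts.

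Coding-sequence counts and RPKM were summed by gene name. Counts were filtered with filterByExpr (minimum count 10, minimum total 15), scaled by TMM and tested with edgeR 4.0.16 in R 4.3.3 (quasi-likelihood test, prior count 2, Benjamini-Hochberg over 10469 genes, threshold 0.05). Library totals were 6759850 and 2858835 reads with CDH3-AS1 siRNA and 2034854 and 5994485 with control siRNA. CPM were scaled to the coding-sequence reads of the tested genes and the TMM factor. On that scale 3 reads equal 0.475, 1.18, 1.60 and 0.530 CPM in the same order, the floor of detection. Libraries of a group differed beyond sampling noise (chi-square per degree of freedom 34.5 and 41.9). Same-numbered libraries share a batch by the labels, and over 10469 genes the deviations of the batch 1 libraries from their groups' means had r = 0.58. The batch is therefore also given as a block. That model has 1 residual degree of freedom, against 2 without it. Spread is estimated jointly over genes, so an SE or p-value does not measure the spread of that gene's own libraries alone. TYR and MLANA both had an SE of 0.20 with the block. Their changes within batches 1 and 2 were -0.34 and -1.03 for TYR and -0.81 and -0.59 for MLANA. With 2 libraries against 2, an exact permutation test cannot give a two-sided p below 0.333. UTR ratios were tested in edgeR with a library block for genes with at least 20 UTR reads, and intervals are Clopper-Pearson. DESeq2 1.42.0 and limma 3.58.1 were alternatives. Scripts were tested on simulated data, with 50 genes changed at each fold size. Counts for the siRNA comparison were drawn from the fit with the block and its dispersion trend, so the recovery rates assume that model. Without the block, 0 were recovered at any size up to 4-fold. With the block, 10% were recovered at 1.5-fold, 44% at 2-fold and 80% at 4-fold.

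The 10 members and the lists were chosen with earlier results of these data known. All 10 were to be named, with the list genes that passed any test and up to 3 more per list with the most reads. Promoter windows come from RefSeq (GRCh38.p14); 8 of the 10 members matched.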

Additional observations from a re-analysis of the deposited data

Results flagged for a closer look

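TYRP1, DCT and ATP7A went opposite ways in the batches, CDH3-AS1 siRNA over control siRNA, and the difference between the batches was not tested since each holds 1 library per siRNA. The log2 values within batches 1 and 2 were 0.17 and -0.22 for TYRP1, 0.19 and -1.43 for DCT, and 0.63 and -0.43 for ATP7A. The DCT value in batch 2 rests on 14 reads with CDH3-AS1 siRNA and 89 with control siRNA, and the ATP7A value in batch 1 on 289 and 55.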

How the results depend on the processing

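Against 0 genes called between the siRNAs, the replicate block called 170 (97 higher, 73 lower), DESeq2 2, DESeq2 with the block 55, no filter 52 and limma on log2(RPKM + 1) with the block 90. Combined with the block, total-count scaling gave 167, upper-quartile scaling 171, no filter 227, at least 50 reads 127, the top transcript 149 and all regions 191. These combined settings were chosen after seeing the data. Leaving out 1 library gave 0 to 73, the 73 without control siRNA replicate 2. Of the members, 2 were called with the block alone, with total scaling, with no filter and with at least 50 reads, 1 with upper-quartile scaling, and 0 in the other settings. Between batches DESeq2 called 680 genes and no filter 1588, against 1657, with 4 members each time. The median over the members ran from -0.65 to 0.20 with 1 library left out and was -0.10 and -0.48 within batches 1 and 2.

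Signs turned as follows. Fits with 1 library left out had no block and left 1 siRNA with a single batch, so batch and siRNA differences are partly mixed in them. With 1 library left out, TYRP1 ran from -0.50 to 0.59, DCT from -1.43 to 0.21, PMEL from -0.73 to 0.33, OCA2 from -0.16 to 0.72, SLC24A5 from -0.75 to 0.35, GPR143 from -1.28 to 0.062 and ATP7A from -0.39 to 0.64. Within batch 1, TYRP1 was 0.17, DCT 0.19 and ATP7A 0.63. ATP7A (-0.0078) was 0.075 with the replicate block, 0.0098 with DESeq2, 0.0084 with upper-quartile scaling, 0.10 with DESeq2 and the block, 0.062 with limma with or without the block, 0.071 with a pseudocount of 0.1 and 0.076 with the top transcript. With the block it was 0.028 under total scaling, 0.083 under upper-quartile scaling, 0.076 with no filter, 0.068 with at least 50 reads, 0.15 with the top transcript and 0.046 with all regions. The MLANA 5′ UTR ratio between the siRNAs was -0.22 over all transcripts and 0.39 in the top transcript. The cause was not tested. TYR stayed at -0.86 to -0.45, MLANA at -0.84 to -0.56 and SLC45A2 at -1.19 to -0.30 with 1 library left out, none passing. The block with a library left out has no residual degrees of freedom and could not be fitted. Depth limits DCT most, at 14 to 116 reads.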
